A study of Mus musculus with 6 samples.

Results

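The genes described here make, carry, destroy and sense retinoic acid, the active form of vitamin A. They were taken from the deposited table by symbol: the nuclear receptors Rara, Rarb, Rxra, Rxrb and Rxrg, the binding proteins Crabp1 and Crabp2, the synthesis enzymes Aldh1a1 and Aldh1a3, and the clearing enzyme Cyp26b1. All 10 were found among the 47062 genes in the table. RNA came from newborn (postnatal day 0) mouse striatum, dissected with its subventricular zone, on a mixed background of C57BL/6J, 129S6 and CD1. The 3 mutant libraries are Drd2-Cre;Sp9Flox/Flox and the 3 control libraries are littermate Sp9Flox/Flox without Cre, so the floxed Sp9 alleles are common to both groups. Cre is driven by regulatory sequence of the dopamine receptor gene Drd2, which aims the deletion of the transcription factor gene Sp9 at striatopallidal projection neurons and leaves other cells of the tissue outside its aim. No group carried Cre without the floxed alleles, so an effect of Cre and an effect of losing Sp9 cannot be told apart. Nothing in the labels says whether a library is 1 animal. The p-values below speak only for the spread among the libraries, which may be technical. For the controls it is not technical alone, since they do not all come from the same animal. The Y-linked gene Eif2s3y had 0.188, 0 and 64.6 FPKM in control replicates 1 to 3.

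Retinol enters cells, is oxidised to retinal and then, by enzymes of the Aldh1a family, to retinoic acid. Inside the cell the acid is bound by Crabp proteins and is broken down by Cyp26 enzymes. In the nucleus it binds retinoic acid receptors (RARs), which sit on DNA as pairs with retinoid X receptors (RXRs). In the mouse, Rarb and Rxrg are the family members known for expression in striatal neurons, where they act on dopamine receptor genes, and Aldh1a3 is a known source of the acid in the embryonic lateral ganglionic eminence, from which these neurons arise.

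The classical DNA element for an RAR and RXR pair is a direct repeat of a short half-site with a spacer of 5 bases, called DR5. The half-site searched was AGGTCA or a variant of it. The variants allowed were GGGTCA at one base, AGTTCA at another base, or GGTTCA at both. Any of these had to be followed by 5 bases of any kind and then by any of them again, and both strands were searched. The windows were RefSeq promoters on GRCm38.p6, each with 250 bases before and 50 after a gene start, and they existed for 8 of the 10 genes (15 windows in all). Among these 15 windows, 1 held a DR5, that of Rarb; of all 32851 promoter windows 32 did (0.0974%). The Rarb match begins 53 bases before the start, at chr14:16575513-16575529. Cyp26a1, the sister gene of Cyp26b1, was another of the 32 and is shown because the levels of the 2 genes that carry the element differ so widely below. The Rarb window (chr14:16575427-16575726, minus strand) and a stretch of the Cyp26a1 window (chr19:37697748-37697817, plus strand) read as follows, with the DR5 in capitals.
Rarb: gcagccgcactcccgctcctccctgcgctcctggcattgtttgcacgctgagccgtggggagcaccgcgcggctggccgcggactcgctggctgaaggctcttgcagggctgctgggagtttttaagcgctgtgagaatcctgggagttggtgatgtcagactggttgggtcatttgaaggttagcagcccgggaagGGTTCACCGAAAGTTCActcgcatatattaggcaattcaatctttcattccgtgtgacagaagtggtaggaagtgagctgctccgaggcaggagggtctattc
Cyp26a1: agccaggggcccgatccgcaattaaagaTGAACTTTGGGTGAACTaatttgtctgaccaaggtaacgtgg

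Sp proteins, the family of the deleted factor, are known to bind GC boxes, so the letters GGGCGG were counted too, on both strands. Read on the other strand, the same box is CCGCCC. Of the 15 windows, 8 held at least 1 GC box, as did 35.7% of all windows. The Crabp1 window (chr9:54764498-54764797, plus strand) held the most, 5, a number reached by 2.71% of all windows. One window each of Rxra and Rxrb and a pair of Rara windows held 4. The pair of Rara windows overlap (chr11:98937446-98937745 and chr11:98937468-98937767). The same boxes can thus be counted in both, and both windows are among the 8. The windows of Rarb and Rxrg held none. Neither motif overlapped the other in these windows, since none held both. A match of letters is a description of the sequence and not a measured site. In the Crabp1 window the GC boxes are in capitals.
Crabp1: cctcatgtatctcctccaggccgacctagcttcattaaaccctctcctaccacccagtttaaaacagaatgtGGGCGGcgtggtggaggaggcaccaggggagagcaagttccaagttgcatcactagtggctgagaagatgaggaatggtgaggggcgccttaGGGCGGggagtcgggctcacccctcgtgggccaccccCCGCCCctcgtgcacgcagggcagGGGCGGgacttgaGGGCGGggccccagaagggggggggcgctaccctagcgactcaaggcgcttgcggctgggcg

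Levels are given in FPKM, fragments scaled to transcript length and to the size of the library, so that genes can be compared with each other. The libraries held 16237048 to 19457779 fragments in genes, estimated from the steps in the deposited count columns. Sp9 itself had 8.37, 7.93 and 9.67 FPKM in mutant replicates 1 to 3, against 20.1, 19.0 and 17.3 FPKM in control replicates 1 to 3 (log2 difference -1.08 ± 0.09, SE, limma adjusted p = 0.0567). Every mutant library was below every control library, though which part of the gene the floxed sites remove is not given in the sources used here. Striatal identity held in every library: all 10 listed markers of projection neurons, Foxp1 and Zfp503 among them, were at 16.6 FPKM or more. Control replicate 3 was the only library with transcripts of the Y-linked genes looked at above 1 FPKM.

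The enzymes that make retinoic acid were near the limit of detection. Aldh1a3 (chr7:66390890-66427517) had 1, 0 and 2 fragments in mutant replicates 1 to 3, against 4, 0 and 0 fragments in control replicates 1 to 3. Its FPKM was 0.0650 in the highest mutant library and 0.0902 in the highest control library, and it was listed at 0 in mutant replicate 2 and in control replicates 2 and 3. Aldh1a1 (chr19:20492715-20643465) had 5, 3 and 6 fragments in mutant replicates 1 to 3, against 5, 3 and 2 fragments in control replicates 1 to 3, which is 0.143, 0.0842 and 0.200 FPKM in the mutants and 0.154, 0.0900 and 0.0662 FPKM in the controls. Aldh1a1 also marks part of the midbrain dopamine neurons. The 5 listed markers of those neurons summed to 5.34 to 8.71 FPKM in mutants and 4.98 to 6.67 FPKM in controls, most of it Th, with Pitx3 listed at 0 in all 6 libraries; their part in Aldh1a1 was not tested. The related Aldh1a2, an enzyme known from meninges, had 0.0494 to 0.260 FPKM in mutants and 0.106 to 0.201 FPKM in controls. Summed over these 3 enzymes, each library held 0.206 to 0.525 FPKM in mutants and 0.245 to 0.350 FPKM in controls. Neither Aldh1a1 nor Aldh1a3 reached the mean of 0.5 FPKM required for the test, and at these fragment numbers a difference of a few fold between the groups was not detectable.

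The binding proteins were far above the enzymes, and almost all of their signal was Crabp1. Crabp1 (chr9:54764748-54773110) had 101, 145 and 70.8 FPKM in mutant replicates 1 to 3, against 56.9, 91.3 and 77.5 FPKM in control replicates 1 to 3. The groups overlapped, with mutant replicate 3 inside the control range. Crabp2 (chr3:87948666-87953376), the form known for handing the acid to receptors, had 2.74, 4.80 and 2.65 FPKM in mutant replicates 1 to 3, against 1.95, 3.16 and 2.59 FPKM in control replicates 1 to 3. Crabp1 made up 96.4 to 97.4% of the summed Crabp FPKM in mutants and 96.6 to 96.8% in controls. Cyp26b1 (chr6:84571414-84593908), which oxidises the acid for removal, had 1.29, 2.35 and 1.04 FPKM in mutant replicates 1 to 3, against 0.667, 2.64 and 0.626 FPKM in control replicates 1 to 3. In both groups Cyp26b1 was highest in the library numbered 2. The sister enzyme Cyp26a1, shown above for its DR5, had 0.0366 to 0.170 FPKM in mutants and 0.0388 to 0.151 FPKM in controls, and Cyp26c1 was listed at 0 in all 6 libraries.

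Among the receptors Rxrg stood highest. Rxrg (chr1:167598384-167639623) had 322, 249.6 and 285 FPKM in mutant replicates 1 to 3, against 291, 255 and 295 FPKM in control replicates 1 to 3. Its mean over the libraries was at percentile 97.1 of the 16666 genes tested. Rarb (chr14:16430839-16819156) had 101, 84.5 and 95.6 FPKM in mutant replicates 1 to 3, against 112, 86.3 and 101 FPKM in control replicates 1 to 3, at percentile 92.9. Both genes were lowest, within each group, in the library numbered 2. The end of Rarb overlaps the end of Top2b on the other strand, in 1793 of its 5265 annotated exon bases (34.1%), and whether counting used strand is not given in the sources used here, so reads of the 2 genes may be shared; Top2b had 68.6 to 74.6 FPKM in mutants and 68.5 to 73.4 FPKM in controls.

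The other receptors were lower and mostly steadier. Rxrb (chr17:34031812-34038399) had 45.4, 44.5 and 43.0 FPKM in mutant replicates 1 to 3, against 43.6, 43.0 and 43.7 FPKM in control replicates 1 to 3. Its coefficient of variation (SD over mean) was 2.75% in mutants and 0.886% in controls, against 2.46% and 2.55% from fragment counting alone. Rara (chr11:98927818-98974942) had 8.04, 7.78 and 6.53 FPKM in mutant replicates 1 to 3, against 8.78, 9.27 and 10.02 FPKM in control replicates 1 to 3, with no overlap between the groups. Rxra (chr2:27676440-27762957) had 3.92, 3.28 and 3.81 FPKM in mutant replicates 1 to 3, against 3.45, 3.79 and 3.09 FPKM in control replicates 1 to 3. Rarg, the remaining RAR gene, had 2.51 to 2.86 FPKM in mutants and 2.59 to 3.26 FPKM in controls.

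**Figure D1:**
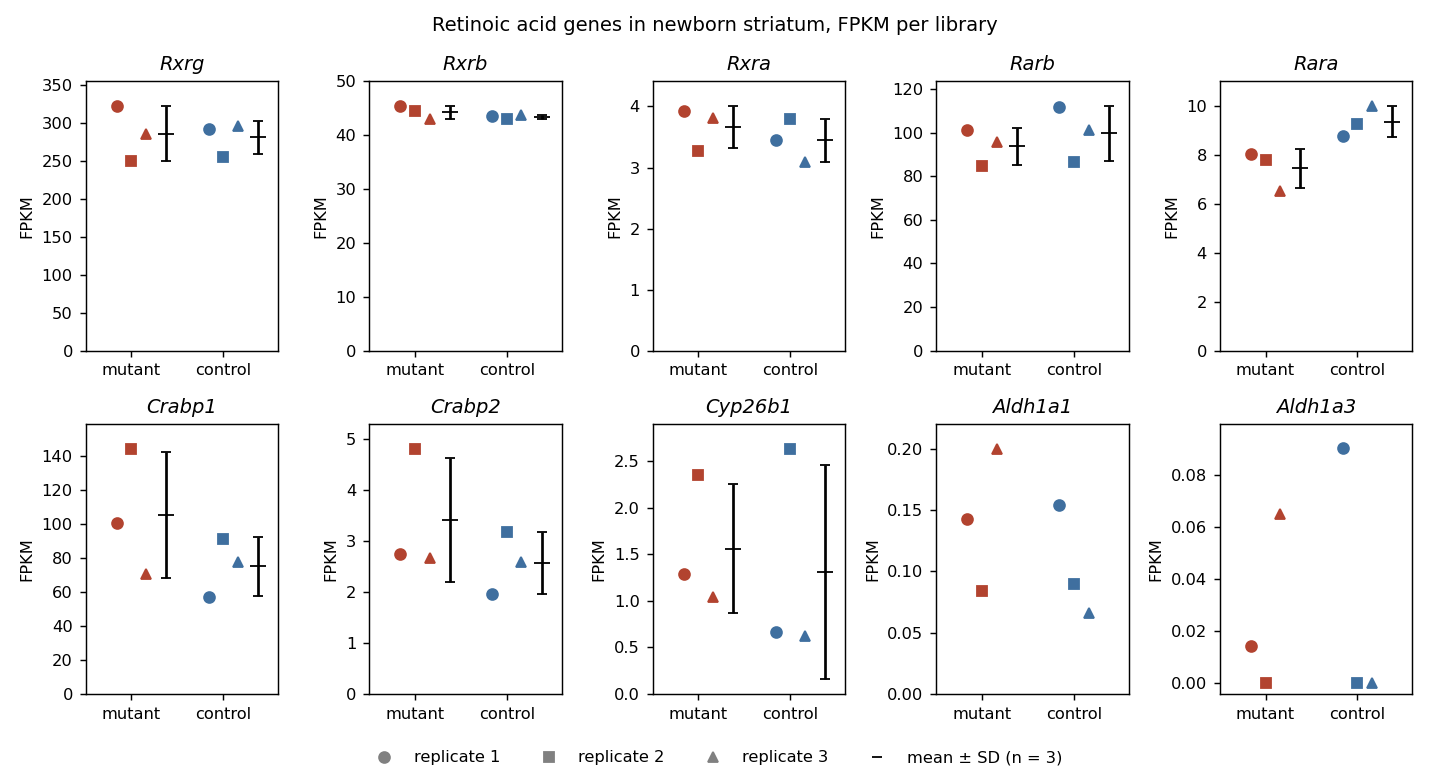
FPKM of the 10 retinoic acid genes (vertical axes, from 0 or just below it for Aldh1a3), 1 panel per gene, with mutant libraries on the left and control libraries on the right of each panel, a marker shape for each replicate, and the mean ± SD (n = 3) for the 8 genes that were tested. Rxrg lies between 249.6 and 322 FPKM in mutants and between 255 and 295 FPKM in controls, while no library exceeds 0.200 FPKM for Aldh1a1 or Aldh1a3.

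Ordered by mean, the mutants ran Rxrg, Crabp1, Rarb, Rxrb, Rara, Rxra, Crabp2, Cyp26b1, Aldh1a1, Aldh1a3, and the controls ran the same way except that Rarb stood above Crabp1. The mutant means were 286 ± 36.4 FPKM for Rxrg, 105 ± 37.1 for Crabp1 and 93.7 ± 8.49 for Rarb, and the control means were 280.5 ± 22.0 FPKM for Rxrg, 75.2 ± 17.3 for Crabp1 and 99.7 ± 12.7 for Rarb (SD, n = 3 each). Rarb and Crabp1 overlapped in both groups and so did Rxra and Crabp2. Crabp2 and Cyp26b1, and Aldh1a1 and Aldh1a3, overlapped in the controls alone. Every other neighbour in the order was separated in all libraries of its group. Within the RARs, Rarb held 89.0 to 91.4% of the summed FPKM in mutants and 87.6 to 90.3% in controls. Within the RXRs, Rxrg held 83.9 to 86.7% in mutants and 84.5 to 86.3% in controls. Summed RXR FPKM was 3.14 to 3.32 times summed RAR FPKM in mutants and 2.74 to 3.06 times in controls.

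**Figure D2:**
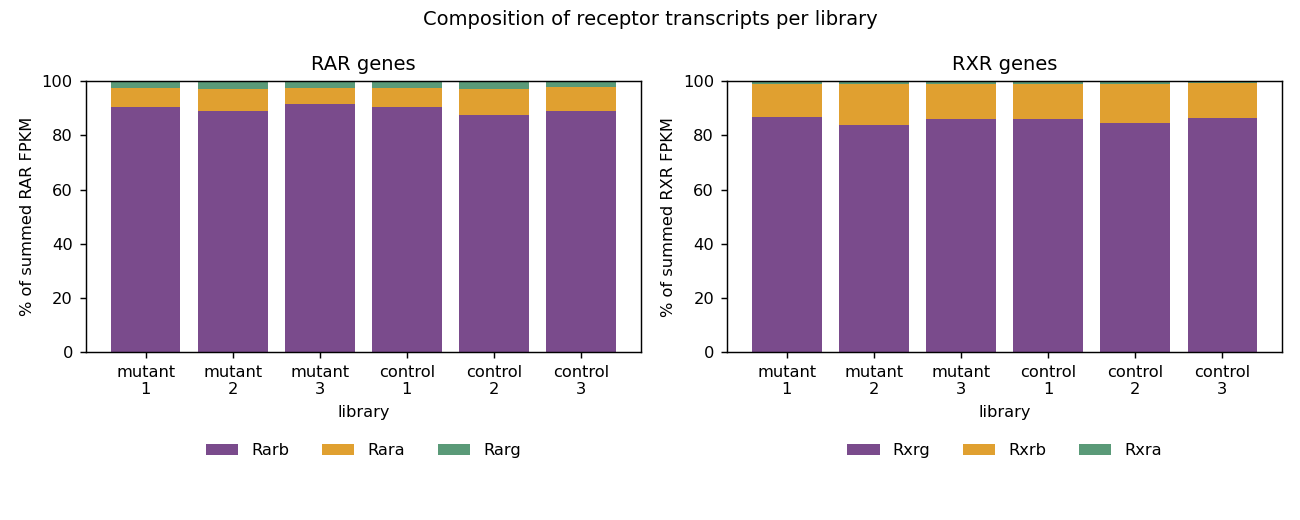
Share of each gene (vertical axes, % of summed FPKM) in the RAR genes on the left and the RXR genes on the right, for 3 mutant and 3 control libraries. Rarb makes up at least 87.6% of RAR FPKM and Rxrg at least 83.9% of RXR FPKM in each of the 6 libraries.

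Mutants were set against controls to ask whether these genes differ in bulk striatum when Sp9 is deleted by Drd2-Cre; in bulk tissue, fewer cells of a type and less RNA per cell cannot be told apart. None of the 8 members tested passed an adjusted p of 0.05 with limma, fitted to log2(FPKM + 0.5) over all 16666 genes, where 0.06% of genes passed (0.036% higher and 0.024% lower in mutants). At an unadjusted p under 0.05 there was 1 member, Rara, which was lower in mutants, against 5.65% of all genes. Groups did not overlap in 1 of the 8, again Rara, against 11.4% of all genes (5.33% higher and 6.05% lower in mutants). Over the 8 members the median log2 difference was 0.05, with 6 estimates above 0 and 2 below, and over all genes tested it was -0.00016. The study's own rule asks for a 2-fold change together with an unadjusted p no higher than 0.05; by it no member was counted, against 0.342% of all genes. With 3 libraries against 3, an exact permutation test cannot give a p under 0.1, and the exact two-sided p was 0.1 for Rara and 0.3 or more for the other 7.

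The abundant receptors were held within narrow intervals. Mutant over control, Rxrb had a fold of 1.02 with a 95% interval of 0.958 to 1.084 (limma adjusted p = 0.935). For Rxrg the fold was 1.01 with an interval of 0.841 to 1.23 (adjusted p = 0.992), and for Rarb it was 0.943 with an interval of 0.776 to 1.147 (adjusted p = 0.937). A 1.5-fold difference in either direction thus lies outside the intervals of these 3 genes, and also outside that of Rxra (0.872 to 1.28). Rara had a mean of 7.45 ± 0.808 FPKM in mutants and 9.36 ± 0.624 FPKM in controls (SD, n = 3 each), with no overlap. Its log2 difference was -0.31 ± 0.10 (SE; limma adjusted p = 0.800, and 0.0205 before adjustment). Rara was lowest in mutant replicate 3, the library with the highest summed FPKM of cortical glutamatergic markers. That sum was 54.5, against 34.5 and 8.20 in mutant replicates 1 and 2 and 7.17 to 22.2 in the controls. Mutant replicate 1 had the highest Rara of the mutants, 8.04 FPKM, against 7.78 in mutant replicate 2. Among all libraries Rara was highest in control replicate 3, the library with Y-linked transcripts. Without mutant replicate 3 the log2 difference of Rara was -0.23 and without control replicate 3 it was -0.27 (unadjusted p = 0.0691, limma); the part of cortical tissue or of sex in its value was not tested.

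The binding and clearing genes could not be held as tightly. Crabp1 had a log2 difference of 0.45 ± 0.30 (SE) and a fold interval of 0.817 to 2.28 (limma adjusted p = 0.888). Crabp2 had 0.32 ± 0.26 with a fold interval of 0.800 to 1.95 (adjusted p = 0.888), and Cyp26b1 had 0.31 ± 0.48 with a fold interval of 0.549 to 2.81 (adjusted p = 0.951). Without mutant replicate 2 the log2 differences of Crabp1, Crabp2 and Cyp26b1 were 0.19, 0.08 and 0.05, and without control replicate 1 they were 0.26, 0.17 and 0.08. Without mutant replicate 3, Crabp1 was at 0.70 and Cyp26b1 at 0.50, and Cyp26b1 was at 0.80 without control replicate 2 and 0.06 without control replicate 3. Differences of 1.5-fold in either direction remain inside the interval of Cyp26b1, and upward ones inside those of Crabp1 and Crabp2. Their libraries varied by more than counting gives: the coefficient of variation of Crabp1 was 35.2% in mutants and 23.0% in controls, against 2.70% and 3.27% from counting, and that of Cyp26b1 was 44.4% in mutants and 87.8% in controls, against 9.08% and 10.2%.

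**Figure D3:**
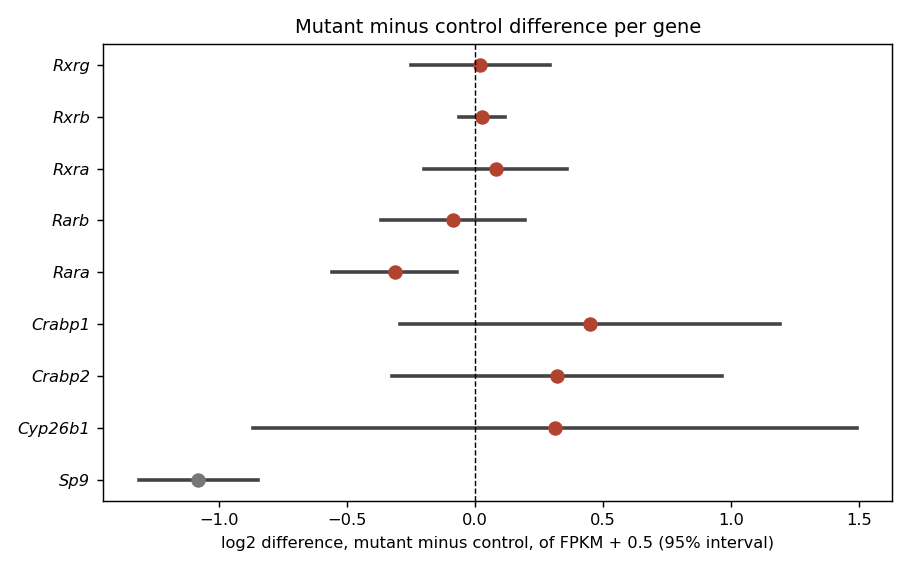
Log2 difference of FPKM + 0.5, mutant minus control (horizontal axis; points are estimates, lines are 95% intervals from limma, n = 3 libraries in each group), for the 8 tested retinoic acid genes and for Sp9. The line of Rxrb is the shortest, from -0.06 to 0.12, that of Cyp26b1 runs from -0.86 to 1.49, and Sp9 lies at -1.08.

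Other genes of the pathway were taken from 6 lists that together hold 63 genes, of which 43 were tested. None of the 43 passed an adjusted p of 0.05 with limma. At an unadjusted p under 0.05, 3 were higher and 2 were lower, against 2.65% and 2.99% of all genes tested. Groups did not overlap in 5 of the 43 (Ttr, Thrb, Ncoa2, Tbl1xr1 and Zfp503), against 11.4% of all genes tested. The median log2 difference over the 43 was -0.02. In the supply of retinol, 4 of 10 genes were tested, with 1 estimate above 0 and 3 below. Stra6, the retinol uptake receptor, had 10.3, 8.30 and 12.03 FPKM in mutant replicates 1 to 3, against 16.6, 10.3 and 14.4 FPKM in control replicates 1 to 3 (log2 difference -0.40 ± 0.21, SE, adjusted p = 0.885). Dgat1, an enzyme that can esterify retinol for storage, had a log2 difference of -0.09. Ttr, the plasma carrier of retinol and its binding protein and a marker of choroid plexus, had 1.48, 1.04 and 1.54 FPKM in mutant replicates 1 to 3, against 0.118, 0.867 and 0.192 FPKM in control replicates 1 to 3 (adjusted p = 0.795). It passed the filter through the mutant libraries. The 6 choroid plexus markers, Ttr among them, summed to 2.67 to 2.90 FPKM in mutants and 1.67 to 2.48 FPKM in controls, with Folr1 listed at 0 throughout. Without Ttr the other 5 summed to 1.19, 1.70 and 1.36 FPKM in mutant replicates 1 to 3, against 1.55, 1.61 and 1.48 FPKM in control replicates 1 to 3, and these overlapped. Clic6, the only other marker of that tissue that could be tested, had a log2 difference of -0.34 ± 0.23 (SE, limma adjusted p = 0.888).

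Of the 15 oxidoreductases of retinol and retinal, 9 were tested and none passed, with 5 estimates above 0 and 4 below. Dhrs3, which turns retinal back into retinol, had 8.74, 6.62 and 10.6 FPKM in mutant replicates 1 to 3, against 14.9, 7.83 and 11.3 FPKM in control replicates 1 to 3 (log2 difference -0.35 ± 0.27, SE, limma adjusted p = 0.888). The difference was -0.14 without control replicate 1, -0.58 without control replicate 2 and -0.18 without mutant replicate 2. Rdh10, the enzyme that makes retinal from retinol, was present at 11.9 to 17.05 FPKM in mutants and 13.4 to 19.5 FPKM in controls. The step before the Aldh1a enzymes thus stood at a level that Aldh1a1 and Aldh1a3 did not approach in any of the 6 libraries. Rdh11, Rdh13 and Dhrs4 had log2 differences of 0.08, -0.05 and 0.12.

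Receptor partners and coregulators were also tested. The 7 tested nuclear receptors of this list are partners of RXRs or relatives of such partners. Nr4a1, an activity-induced gene, had 8.51, 10.1 and 9.35 FPKM in mutant replicates 1 to 3, against 16.6, 9.98 and 14.1 FPKM in control replicates 1 to 3 (log2 difference -0.49 ± 0.19, SE, limma adjusted p = 0.858). The thyroid hormone receptor gene Thrb had 6.95, 5.05 and 7.01 FPKM in mutant replicates 1 to 3, against 8.07, 7.37 and 8.16 FPKM in control replicates 1 to 3 (adjusted p = 0.863), and Nr4a2 and Nr1h3 had log2 differences of 0.85 and -0.19. That of Nr4a2 was 0.27 without mutant replicate 1, 1.55 without mutant replicate 2 and 1.28 without control replicate 2, and that of Nr1h3 was -0.10 without mutant replicate 1. Thrb was at -0.16 without mutant replicate 2. All 13 coregulators were tested. Ncoa2, a coactivator, had 17.3, 16.8 and 16.5 FPKM in mutant replicates 1 to 3, against 14.1, 15.6 and 14.9 FPKM in control replicates 1 to 3 (log2 difference 0.18 ± 0.05, SE, adjusted p = 0.786), without overlap. Tbl1xr1, part of a corepressor complex, had 17.5, 17.4 and 15.7 FPKM in mutant replicates 1 to 3, against 18.9, 19.0 and 20.3 FPKM in control replicates 1 to 3 (-0.20 ± 0.06, adjusted p = 0.795), also without overlap. Ncoa1 and Ep300 had log2 differences of -0.18 and 0.06. Fabp5, an alternative carrier of the acid, Ppard, the receptor it serves, and Rarg had log2 differences of 0.13, 0.15 and -0.11.

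Of 13 genes known to respond to retinoic acid, 10 were tested, with 3 estimates above 0 and 7 below and none past the threshold. Zfp503, a zinc finger gene of striatal neurons, had 18.6, 18.9 and 19.4 FPKM in mutant replicates 1 to 3, against 17.2, 16.8 and 16.6 FPKM in control replicates 1 to 3. Every mutant library lay above every control library, with a log2 difference of 0.17 ± 0.04 (SE). Its p was the smallest among the 43 pathway genes (limma adjusted p = 0.722, and 0.00772 before adjustment). Drd2, which carries the regulatory sequence used for Cre, had 45.1, 45.9 and 42.1 FPKM in mutant replicates 1 to 3, against 48.5, 42.0 and 44.5 FPKM in control replicates 1 to 3. Tgm2 had a log2 difference of -0.37. The homeobox genes Hoxb1 and Cdx1, which respond to the acid in the embryonic trunk and hindbrain, were listed at 0 in every library.

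Some members varied from library to library in the same way in mutants and in controls, a pattern noticed after the values were seen. Crabp1, Crabp2 and Cyp26b1 were highest in the library numbered 2 of both groups, and Rarb and Rxrg were lowest there. Of the 8 members tested, 3 were thus highest and 2 lowest in both numbered 2, against 13.6% and 15.0% of all genes tested. Taken against the mean of its own group, Cyp26b1 was 0.52 higher in mutant replicate 2 and 0.97 higher in control replicate 2 on the log2 scale, and Rarb was at -0.15 and -0.20. The retinol genes went both ways. Stra6, Dgat1, Dhrs3 and Rdh10 were lowest in both libraries numbered 2, with Dhrs3 at -0.34 in the mutant and -0.46 in the control, while Rdh5, Rdh11 and Rdh13, 3 of the 9 tested oxidoreductases, were highest in both. Among the 13 coregulators, 6 were lowest in both. Rara, Rxra and Rxrb did not follow either pattern. The libraries numbered 2 also had the lowest FPKM summed over all genes in each group. These sums were 1609866, 1295150 and 1516653 in mutant replicates 1 to 3, against 1628778, 1429271 and 1729930 in control replicates 1 to 3. Their part in the pattern was not tested.

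Some markers of other cells were also highest or lowest in both libraries numbered 2, and others were not. Of 9 tested markers of interneurons from the medial ganglionic eminence, 4 (Nkx2-1, Lhx6, Lhx8 and Npy) were highest in both libraries numbered 2, as were 4 of 6 markers of astrocytes and radial glia and 2 of 4 of septum. The eminence genes Dlx1, Dlx2 and Dlx5, 3 of 8 progenitor markers, were lowest in both. Sst, another of the interneuron markers, was highest in mutant replicate 1 (199 FPKM, against 179 in mutant replicate 2). No tested marker of direct pathway neurons, cortical glutamatergic neurons or meningeal fibroblasts was highest in both libraries numbered 2. Summed over the list, the interneuron markers had 499, 501 and 416 FPKM in mutant replicates 1 to 3, against 323, 438 and 387 FPKM in control replicates 1 to 3, with none at 0. The astrocyte and radial glia markers had 584, 719 and 651 FPKM in mutant replicates 1 to 3, against 528, 661 and 529.8 FPKM in control replicates 1 to 3, also with none at 0. Meningeal markers summed to 6.34 to 8.14 FPKM in mutants and 5.03 to 6.05 FPKM in controls. The part of these cells in the levels of Crabp1, Crabp2 and Cyp26b1 was not tested. By the labels, the libraries numbered 2 share a number only and are not tied to a litter or a day.

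**Figure D4:**
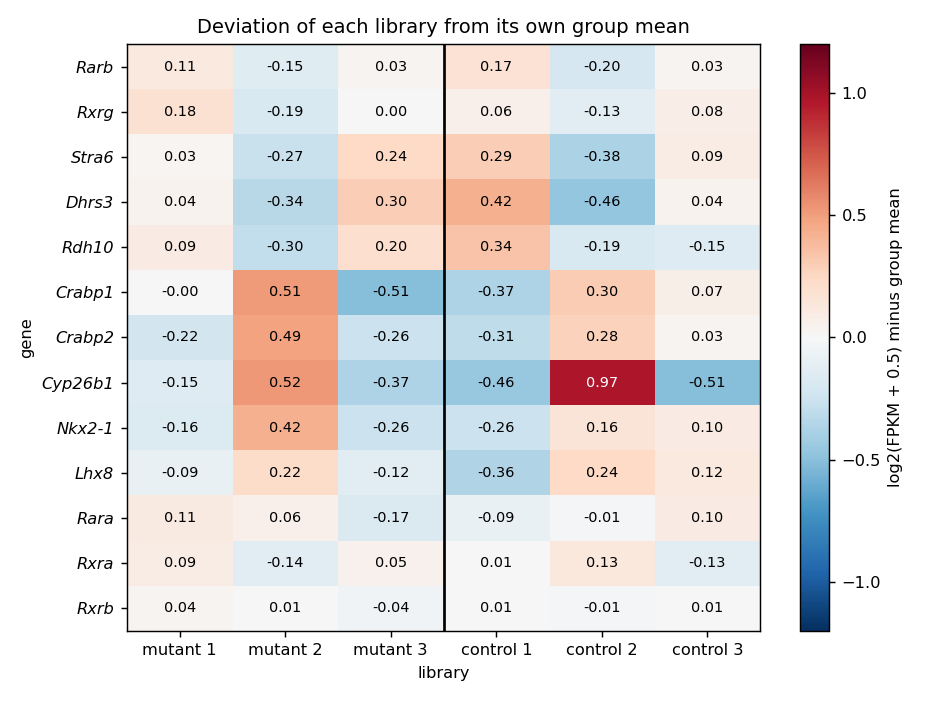
Deviation of each library from the mean of its own group, in log2(FPKM + 0.5) (colour and printed values), for the 8 tested retinoic acid genes, the retinol genes Stra6, Dhrs3 and Rdh10 and the interneuron markers Nkx2-1 and Lhx8 (rows) in 3 mutant and 3 control libraries (columns). Crabp1 is at 0.51 in mutant replicate 2 and 0.30 in control replicate 2, where Rarb is at -0.15 and -0.20.

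The genes whose pattern over the 6 libraries was closest to those of Rara and Crabp1, the 2 members with the smallest p, were sought among 12231 others with a mean of at least 1 FPKM. Likeness was the root mean square distance between log2(FPKM + 0.5) values, each centred on the gene's own mean. For Rara these were Creld2 (distance 0.04), Adcy1 (0.05) and Ngef (0.05). Adcy1, an adenylyl cyclase gene, had 93.0, 95.6 and 80.01 FPKM in mutant replicates 1 to 3, against 102, 108 and 109 FPKM in control replicates 1 to 3. For Crabp1 they were Syt10 (0.12), Edil3 (0.12) and Cacng3 (0.13). Edil3 had 5.50, 10.3 and 4.68 FPKM in mutant replicates 1 to 3, against 3.62, 6.58 and 5.18 FPKM in control replicates 1 to 3.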

How the data were processed

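Total RNA of 6 libraries was sequenced. The authors deposited 1 table with FPKM and count columns per gene and library, per the file headers; TopHat (version not given in the sources used here), Cufflinks 2.1.1 and GRCm38.p4 are named per the submitters' processing notes. The deposited count columns are not whole and were treated as a signal, here called scaled counts: each library has a step (0.970 to 1.153), and 97.9% of values over 0.01, divided by it, came within 0.1 of a whole number; that quotient, rounded, is the estimated fragment number given here. Columns were matched to groups by the codes in the labels. Symbols and positions come from GENCODE M21 (GRCm38), which matched 46483 of 47062 identifiers, and promoters from RefSeq (GRCm38.p6).

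The 16666 genes whose mean FPKM reached 0.5 were fitted with limma 3.58.1 in R 4.3.3 on log2(FPKM + 0.5), with a variance trend and no covariate; p-values are two-sided and Benjamini-Hochberg adjusted with a threshold of 0.05. Folds carry the pseudocount and so are too small for low genes. The steps were tested on simulated data of 16102 genes with a dispersion (spread beyond counting) of 0.01. There, 52.2% of 1.5-fold, 91.0% of 2-fold and 98.5% of 3-fold changes were recovered, and 10 unchanged genes were called. The changed genes, 67, 67 and 66 at these folds, were drawn only from genes above a floor in mean scaled count. All genes were given the same dispersion. This recovery need not hold for members that varied more between libraries, such as Crabp1 and Cyp26b1, or for genes with few fragments. It also need not hold where fewer genes change, since the adjusted p depends on how many do. In the data 10 genes passed. Intervals from fragment numbers cover counting error only. The alternatives were other pseudocounts, filters and scalings, scaled counts, robust limma, a replicate block and each library left out.

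Members and lists were chosen with earlier results of these data known. Named genes are the members, Sp9, from each list those past the threshold and up to 4 more with the smallest p, and the closest 3 by likeness; 1 gene this rule names is not reported here. Aldh1a2, Cyp26a1, Cyp26c1, Rdh10, Drd2, Top2b, Pitx3, Folr1, Rdh5, Hoxb1, Cdx1, Nkx2-1 and Lhx6 were named after their values were seen.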

Additional observations from a re-analysis of the deposited data

How the results depend on the processing

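No member passed an adjusted p of 0.05 with limma under any of the 16 alternatives run, and the lowest adjusted p of Rara over them was 0.414. Members with an unadjusted p under 0.05 numbered 1 as reported, 0 with the replicate block and 0 to 2 with 1 library left out (0 without control replicate 3; 2 without mutant replicate 3, when Crabp1 joined Rara). Rara stayed lower in the mutants throughout (-0.37 to -0.23), and Crabp1, Crabp2 and Cyp26b1 stayed higher, with log2 differences of 0.19 to 0.70, 0.08 to 0.46 and 0.05 to 0.80. Estimates close to 0 changed sign: with 1 library left out Rarb ran from -0.18 to 1.27e-05 and Rxrg from -0.070 to 0.11, and Rxrg was at -0.013 with quantile normalization and -0.023 on scaled counts. On scaled counts Rdh13, Rarg, Nr1h3 and Tgm2 were at 0.021, 0.0044, 0.24 and 0.33; with 1 library left out Dhrs4 ran from -0.012 to 0.27 and Fabp5 from -0.071 to 0.26, both lowest without mutant replicate 3. The cause was not tested. Over all genes, 10 passed as reported, 5 with the replicate block, 23 when scaled counts were fitted, and from 12 to 23 when any 1 library was dropped; by the fold rule of the design 57 were counted, 29 where the mean scaled count also had to reach 10, 90 with a pseudocount of 0.1, 37 with one of 1 and 73 to 86 with 1 library left out. Libraries with the same number had deviations that correlated at 0.01, 0.04 and 0.06 over 10553 genes, against -0.08 to 0.04 for unlike numbers. Not every library correlated best with its own number. Correlations this small cannot tell whether the numbers pair the libraries. The planned count tests were not run, because the scaled counts are estimates and not every value came out as a whole number of fragments; the fragment numbers given are rounded. Of 28 log2 differences of members and pathway genes, 6 (Rara, Ttr, Nr4a1, Ncoa2, Tbl1xr1 and Zfp503) moved by no more than 1.5 times with any 1 library left out, and the other 22 moved by more or changed sign. Depth limits Aldh1a1 and Aldh1a3, with 24 and 7 fragments over all 6 libraries.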
